A study of Mus musculus with 6 samples.

Results

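The insulin-like growth factor (IGF) system was read here through 9 genes: the ligand gene Igf1, the receptor genes Igf1r and Igf2r, and the binding protein genes Igfbp2, Igfbp3, Igfbp4, Igfbp5, Igfbp6 and Igfbp7. They were chosen by name, as members of a growth factor system that embryonic mesenchyme expresses strongly, and they are 9 of the 12393 genes with a single gene name on the array. Earlier results of these data were known when they were chosen, so their counts and medians beside those of all genes are a description. The 9 genes had 21 probe sets, and the probe set that was brightest on average over the 6 arrays gave the reading of its gene. Levels are log2 values, so a difference of 1 is a doubling. Because a probe set's level also depends on its probes, levels are compared between groups and never between genes.

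RNA came from C57BL/6 mouse embryos at embryonic day 13.5, whose stomach or intestine was digested with proteases, to remove endoderm, and grown as cells for 3 days in medium with 20% serum. There were 3 groups of 2 biological replicates, each hybridised to 1 Affymetrix array. The stomach and the intestine control cells had the genotype Rosa26+/Barx1 or Bapx1+/Cre, so a control carried 1 of these alleles, and which one is not given for each sample. The sample titles call these controls wildtype. The third group, called Barx1 intestine here, was intestine of the genotype Rosa26+/Barx1;Bapx1+/Cre, in which Cre expressed from the Bapx1 locus turns on Barx1, a homeobox gene of the embryonic stomach mesenchyme. Barx1 can therefore be switched on only in cells where that locus has been active. The series title places the study in stomach smooth muscle development and intestinal rotation.

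IGF1 and IGF2 are secreted growth factors that signal through IGF1R, a receptor tyrosine kinase. IGF2R, the cation-independent mannose 6-phosphate receptor, has no kinase and carries IGF2 to the lysosome. The IGF binding proteins hold the ligands outside the cell and can block their access to the receptor or store and deliver them, and proteases such as pregnancy-associated plasma protein A (PAPP-A) free the ligand again. In the embryo the ligands come largely from mesenchyme and act on mesenchyme and epithelium alike.

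The array medians lay between 6.93 and 6.98, and the lower quartile of an array, below which a level was not shown to exceed background, between 4.72 and 4.76. All 9 genes lay above it on all 6 arrays, while the shares of all genes given below include genes under it. Barx1 read 9.82 and 9.79 in stomach, 5.13 and 4.93 in intestine, and in Barx1 intestine 8.66 and 8.79. Barx1 intestine lay above intestine, as the word overexpressed in its sample titles implies. It lay below stomach by -1.08 (adjusted p = 0.0120 by limma, difference from -1.15 to -1.01 without 1 array). Of 12 gut mesenchyme markers, Gli1 lay at or below the lower quartile on every array. Of 25 epithelial markers Ehf and Foxa3 did, and the others exceeded it on at least 1 array. Of 12 endothelial markers Cdh5, Pecam1, Tek and Tie1 lay there on every array. Every result is from bulk RNA of mixed cells, in which fewer cells of a type and less RNA per cell cannot be told apart.

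**Figure D1:**
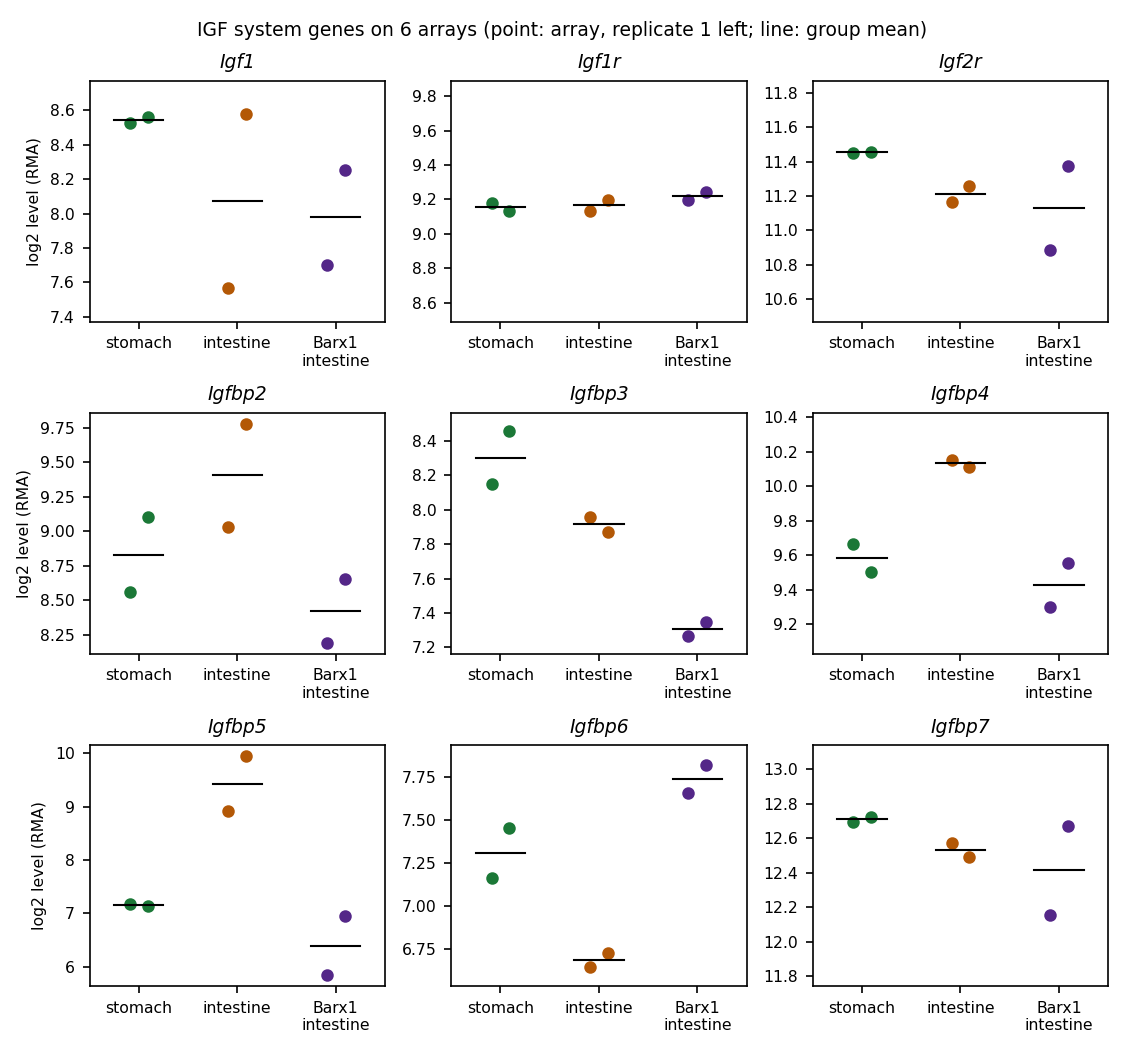
Log2 level (vertical axis, a separate scale for each gene) of the 9 IGF system genes on each array of the 3 groups (horizontal axis), with points for arrays, replicate 1 on the left, and lines for group means. Igfbp5 ranged over 4.11 and Igf1r over 0.11 across the 6 arrays, and Igfbp4 and Igfbp5 were highest, and Igfbp6 lowest, on the intestine arrays.

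Stomach was first set against intestine, the regional difference between the control cultures. Igfbp5, whose protein binds the extracellular matrix as well as IGFs, was 4.83-fold lower in stomach than in intestine, and Igfbp4, which encodes an inhibitory binding protein, was 1.46-fold lower. Igfbp6, whose protein prefers IGF2 over IGF1, was 1.54-fold higher in stomach. The other 6 genes, the ligand and both receptors among them, did not pass the test. The 3 genes past an adjusted p of 0.05 by limma stand against 16.9% of all 12393 genes past it in this comparison, 8.86% as higher and 8.09% as lower. For 6 of the 9 genes every stomach array lay on one side of both intestine arrays, as it did for 64.1% of all genes. The absolute log2 difference had a median of 0.47 over the 9 genes and 0.14 over all genes, and the signed difference medians of 0.18 and 0.02. Leaving out an array moved the count of 3 to 1 without stomach replicate 1 or intestine replicate 1 and to 0 without stomach replicate 2 or intestine replicate 2, while it was 3 without either Barx1 intestine array. At an unadjusted p under 0.05 the counts of 0 were 3 and 4 genes.

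Barx1 intestine was then set against intestine, to see which IGF genes differ when intestinal cells express Barx1. Barx1 intestine carried both alleles and a control only 1 of them, so the alleles themselves and Barx1 expression cannot be told apart. Igfbp5 was 8.23-fold lower in Barx1 intestine, Igfbp4 was 1.63-fold lower and Igfbp6 was 2.07-fold higher. These are the 3 genes called in stomach as well, with the same signs, but both comparisons use the same intestine arrays. Igfbp3, which encodes a main carrier of IGFs in serum, was 1.52-fold lower in Barx1 intestine with an adjusted p of 0.0502 by limma (n = 2 per group, both arrays lower), just outside the threshold. Past it were 3 of 9 genes against 3.98% of all genes, 1.86% as higher and 2.12% as lower. The ranges of the arrays were apart for 6 of the 9 genes, against 52.4% of all genes. The median absolute log2 difference was 0.61 over the 9 genes and 0.11 over all, and the signed medians were -0.12 and 0.02. The count of 3 became 2 without intestine replicate 1, 1 without either stomach array, and 0 without intestine replicate 2 or either Barx1 intestine array (4 to 7 at an unadjusted p under 0.05).

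Barx1 intestine was also compared with stomach, which shows where the IGF genes of the 2 Barx1-positive cultures still differed. Barx1 itself was 2.12-fold lower in Barx1 intestine, so the level of Barx1 and the organ cannot be told apart in this comparison. Igfbp3 was 1.99-fold lower in Barx1 intestine, and it was 1 of 9 genes past the threshold, against 5.2% of all genes, 2.56% as higher and 2.64% as lower. Here the ranges were apart for 7 of the 9 genes, against 58% of all genes. The median absolute log2 difference was 0.41 over the 9 genes and 0.11 over all genes, and the signed median was -0.32 over the 9 genes. Without either stomach array or either Barx1 intestine array the count was 0 by limma (2 to 5 genes at an unadjusted p under 0.05), and without either intestine array it was 1.

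**Figure D2:**
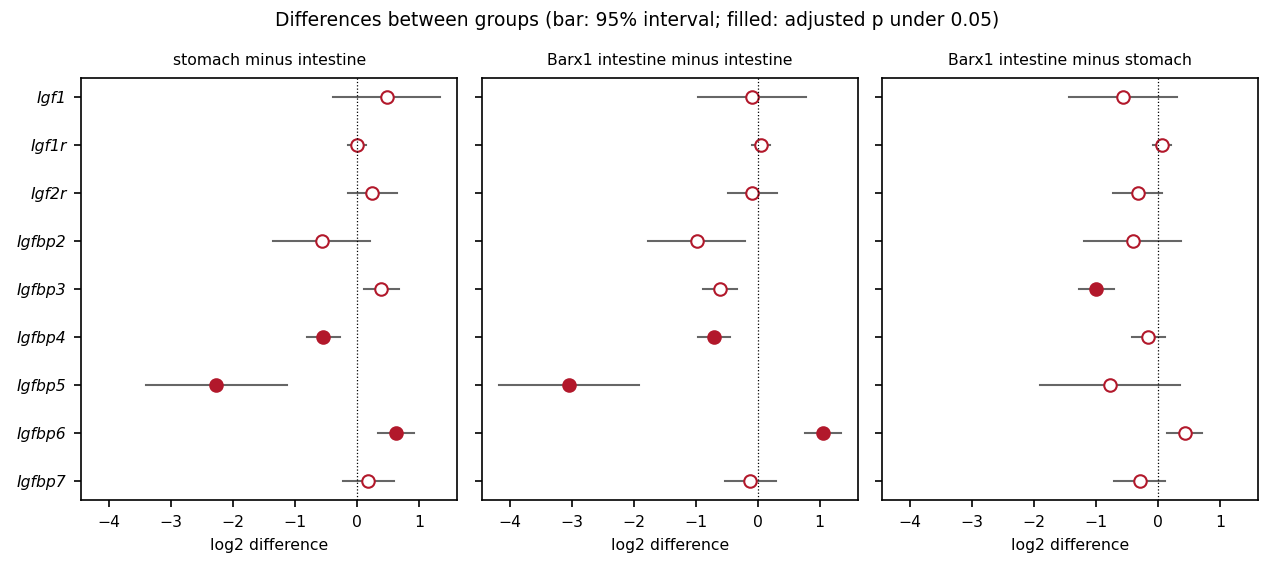
Log2 difference (horizontal axis) of each of the 9 genes (rows) in the 3 comparisons (panels), with 95% intervals of the limma fit as bars and filled points for an adjusted p under 0.05. Igfbp5 lies farthest from 0 in both comparisons with intestine, at -2.27 and -3.04, and the intervals of Igf1r are the narrowest.

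The ligand gene Igf1 read 8.53 and 8.56 in stomach, 7.57 and 8.58 in intestine, and in Barx1 intestine 7.70 and 8.25. The stomach arrays were close together, and the intestine arrays enclosed all the others. The difference between stomach and intestine was 0.47 (95% interval -0.40 to 1.34, adjusted p = 0.397 by limma, n = 2 per group), that between Barx1 intestine and intestine -0.09 (-0.96 to 0.77, adjusted p = 0.908), and that between Barx1 intestine and stomach -0.57 (-1.43 to 0.30, adjusted p = 0.378). All 3 intervals include 0. The gap of 1.01 between the intestine replicates was wider than that of 99.1% of all genes. Without intestine replicate 1 the difference between stomach and intestine was -0.03, and without intestine replicate 2 it was 0.98. The other Igf1 probe sets, 1452014_a_at and 1419519_at, differed between stomach and intestine by -0.05 and 0.06. For Barx1 intestine minus intestine they gave 0.25 and 0.22, and for Barx1 intestine minus stomach 0.30 and 0.16. In both of these comparisons the sign was opposite to that of the main probe set. Of the 3 probe sets 0 passed in any comparison by limma (0 at an unadjusted p under 0.05).

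Macrophages are also a source of Igf1, and their markers differed between the same arrays. The linear values of 18 macrophage and leukocyte markers summed to 7921 and 6273 on stomach replicates 1 and 2, to 10516 and 19886 on intestine replicates 1 and 2, and to 3638 and 7237 on Barx1 intestine replicates 1 and 2. In both intestine groups the replicate with the higher Igf1 level had the higher sum, and in stomach, where the Igf1 levels lay close together, it had the lower sum. In stomach, where Igf1 was highest by group mean of the main probe set only, the sum lay below that of either intestine array. By the mean log2 deviation of the list, which weighs each marker alike, Barx1 intestine replicate 2 (-0.39) lay below stomach replicate 2 (-0.24). By the sum it lay above. Lyz2 read 11.43 on that Barx1 intestine array and is among the bright markers that weigh most in the sum. The share of macrophages in the Igf1 level was not tested.

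Igf2, the other ligand gene and no member of the 9, read 12.77 and 12.79 in stomach, 12.34 and 12.40 in intestine, and in Barx1 intestine 12.54 and 12.58. The 3 groups did not overlap, and Barx1 intestine lay between the others. Igf2 was 1.33-fold higher in stomach than in intestine (log2 difference 0.41, SE 0.06, adjusted p = 0.0112 by limma, both arrays higher). That call ended without stomach replicate 1 (adjusted p = 0.0785) or replicate 2 (adjusted p = 0.0921), within a range of 0.00105 to 0.0921 over all alternatives. Barx1 intestine differed from intestine by 0.19 (adjusted p = 0.125) and from stomach by -0.22 (adjusted p = 0.0927).

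The receptor gene Igf1r had the steadiest level of the 9 genes. It read 9.18 and 9.13 in stomach, 9.13 and 9.20 in intestine, and in Barx1 intestine 9.20 and 9.25. Group means differed by at most 0.06, and no comparison passed (adjusted p from 0.562 to 0.944 by limma, n = 2 per group). The 95% intervals ran from -0.16 to 0.14 for stomach minus intestine, from -0.09 to 0.20 for Barx1 intestine minus intestine and from -0.08 to 0.21 for Barx1 intestine minus stomach. A second probe set, 1452108_at, differed by -0.18, -0.20 and -0.02 and did not pass either.

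Igf2r read 11.45 on both stomach arrays, 11.17 and 11.26 in intestine, and in Barx1 intestine 10.89 and 11.38. The stomach arrays lay above all the others, while the Barx1 intestine arrays enclosed those of the intestine. The differences were 0.24 for stomach minus intestine, -0.08 for Barx1 intestine minus intestine and -0.32 for Barx1 intestine minus stomach, and the adjusted p ran from 0.283 to 0.807 by limma (n = 2 per group). The gap between the Barx1 intestine replicates, 0.49, was wider than that of 97.4% of genes. The probe set 1424111_at followed the main one over the 6 arrays (Pearson's r = 0.98, a description) and did not pass in any comparison.

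Among the binding protein genes Igfbp5 had the largest span of group means, 3.04. Its level was 7.18 and 7.14 in stomach, 8.92 and 9.95 in intestine, and in Barx1 intestine 5.84 and 6.95. Both intestine arrays stood above every other array, and both Barx1 intestine arrays below every stomach array. Stomach was lower than intestine by a log2 difference of -2.27 (SE 0.45, 95% interval -3.40 to -1.14, adjusted p = 0.0273 by limma, n = 2 per group). Barx1 intestine was lower than intestine by -3.04 (SE 0.45, 95% interval -4.17 to -1.91, adjusted p = 0.0342). Barx1 intestine and stomach differed by -0.77 (95% interval -1.90 to 0.36, adjusted p = 0.361 by limma), which did not pass although their arrays did not overlap. The interval rests on a spread estimated from all 3 groups together. The replicates themselves were far apart, by 1.02 in intestine and 1.11 in Barx1 intestine, gaps wider than those of 99.2% and 99.7% of genes, and replicate 2 was the higher one in both.

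The calls of Igfbp5 rested on few arrays. For Barx1 intestine against intestine the adjusted p was 0.0334 without intestine replicate 1, but 0.0837 without intestine replicate 2, 0.132 without Barx1 intestine replicate 1, 0.0585 without Barx1 intestine replicate 2 and 0.0938 without either stomach array (0.0119 to 0.132 over all alternatives). For stomach against intestine it was 0.128 and 0.134 without stomach replicate 1 and 2 and 0.0754 without intestine replicate 2 (0.0111 to 0.134 over all alternatives). The sign was the same under every alternative tried.

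The second Igfbp5 probe set gave another picture. Probe set 1422313_a_at read between 5.99 and 6.28 on the 6 arrays, and its differences were 0.05 for stomach minus intestine, -0.01 for Barx1 intestine minus intestine and -0.06 for Barx1 intestine minus stomach (adjusted p from 0.804 to 0.960 by limma over all probe sets). Its Pearson's r with the main probe set, 1452114_s_at, was -0.05 over the 6 arrays, as a description. Both probe sets carry the name of Igfbp5 alone in the platform annotation, and the suffix of the main one marks probes that match more than 1 transcript. With the mean of both probe sets the differences from intestine were -1.11 in stomach and -1.53 in Barx1 intestine. Which of the probe sets follows the Igfbp5 transcript was not tested.

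**Figure D3:**
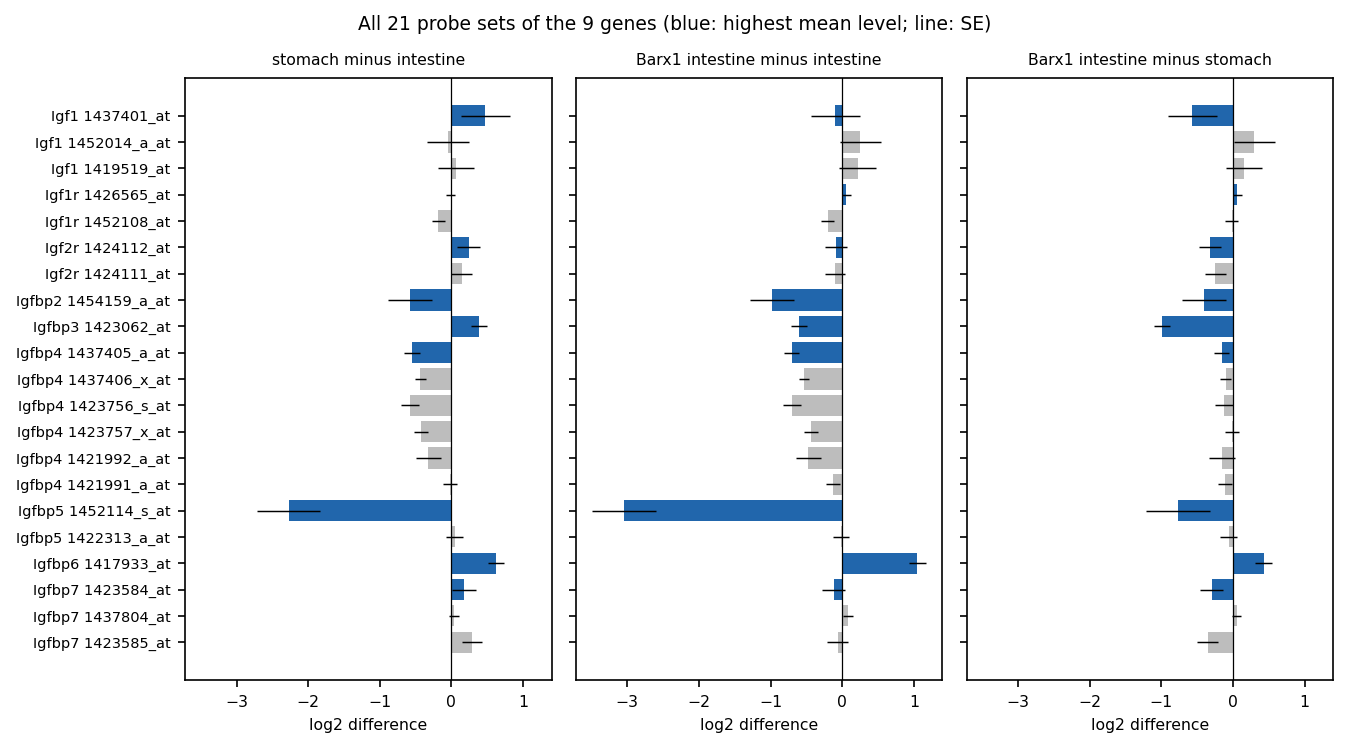
Log2 difference (bars, horizontal axis) with SE (lines) for all 21 probe sets (rows) of the 9 genes in the 3 comparisons (panels), the main probe set of each gene in blue and the others in grey. The main Igfbp5 probe set reaches -3.04 while the other lies at -0.01, whereas all 6 Igfbp4 probe sets point the same way in both comparisons with intestine.

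Markers of cell types other than mesenchyme differed in the same comparisons as Igfbp5. The marker counts below stand beside the shares of all genes called. These were 8.86% as higher and 8.09% as lower in stomach against intestine, and 1.86% and 2.12% in Barx1 intestine against intestine. In Barx1 intestine against intestine, 7 of 18 macrophage and leukocyte markers and 4 of 12 enteric neuron and glia markers were called lower. Of either list 0 were called higher. By group mean Cd14 of the first list was higher without a call (7.78 in intestine, 8.29 in Barx1 intestine). So were Gap43 (7.94, 8.31), Stmn2 (6.14, 6.33), Ret (5.40, 5.55) and Gfra1 (5.33, 5.37) of the second. The other means of both lists were lower. Leaving out 1 array gave 0 to 10 lower macrophage markers and 1 to 5 lower neuron and glia markers. Erbb3, a receptor gene of neural crest and glia, read 7.19 and 7.33 in stomach, 8.79 and 9.22 in intestine, and in Barx1 intestine 6.31 and 6.50, and it was lower than intestine in both groups (log2 differences -1.74 and -2.60, adjusted p = 0.00426 and 0.00418 by limma), calls that held under every alternative tried (0.000743 to 0.0438). C1qa, a complement gene of macrophages, read 9.58 and 9.43 in stomach, 10.32 and 11.25 in intestine, and in Barx1 intestine 7.76 and 8.76 (adjusted p = 0.0413 for Barx1 intestine against intestine, 0.0156 to 0.149 over all alternatives). That call ended in 5 of 6 fits without 1 array, all but that without intestine replicate 1. The neuron and glia markers summed to 2167 and 2015 on the linear scale in stomach, 3122 and 3432 in intestine, and in Barx1 intestine 1601 and 2460, and in both lists 0 markers lay at or below the lower quartile on all arrays. Of 14 smooth muscle markers 0 passed in that comparison by limma (4 at an unadjusted p under 0.05), and their summed level ran from 106667 to 113969 over the 6 arrays. In stomach against intestine 4 of the 14 were higher and 1 was lower (1 to 2 and 1 without 1 array), among them Myocd, a coactivator gene of smooth muscle transcription (0.90, adjusted p = 0.00359 by limma, 0.00151 to 0.0299 over all alternatives), and Synpo2, an actin-binding protein gene (-0.89, adjusted p = 0.00462, 0.00202 to 0.0460). In stomach against intestine 1 macrophage marker and 3 neuron and glia markers were lower (0 to 4 and 1 to 5 without 1 array), and 1 neuron and glia marker was higher. Of 25 epithelial markers 7 were lower in stomach than in intestine (1 to 12 without 1 array) and 1 in Barx1 intestine (0 to 2), and they summed to 5761 and 9107 in stomach, 27106 and 14010 in intestine, and in Barx1 intestine 13961 and 9098. Of 12 endothelial markers 1 was higher and 4 were lower in stomach (0 to 1 and 1 to 4 without 1 array), and 1 was higher and 2 were lower in Barx1 intestine (0 and 0 to 1), with sums from 1006 to 1374 over the 6 arrays. Of 12 gut mesenchyme markers 6 were higher and 1 was lower in stomach (2 to 6 and 1 without 1 array), and 1 was higher and 2 were lower in Barx1 intestine (0 to 1 of each). They summed to 55117 and 57469 in stomach, 35424 and 36417 in intestine, and in Barx1 intestine 29202 and 32743. A linear sum leans on its brightest markers, so these sums are not amounts of a cell type. Col1a2, with group means of 14.28 for stomach and 12.30 for intestine, weighs heavily in the mesenchyme sum. For the same groups Vim was nearly level (14.14, 14.03) and Foxf2 went the other way (6.40, 7.80). Krt8 and Krt18, at 12.63 and 12.58 by intestine group mean, weigh most in the epithelial sum. Among the endothelial calls, Pecam1, lower in both comparisons with intestine, lay at or below the lower quartile on all 6 arrays. Robo4, higher in Barx1 intestine, lay there on 3. In Barx1 intestine against stomach, where Igfbp3 was called, 2.56% of all genes were higher and 2.64% lower. There 5 of 12 gut mesenchyme markers were lower and 1 was higher, and 2 of 14 smooth muscle markers were lower and 1 was higher. Of neuron and glia markers 2 of 12 were lower, while 2 of 12 endothelial and 1 of 25 epithelial markers were higher. The share of cell types in the differences of Igfbp5, Igfbp4, Igfbp6 and Igfbp3 was not tested.

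The genes whose pattern over the 6 arrays was most like that of Igfbp5, by the root mean square difference after centring each gene on its own mean, were Ednrb (0.18 on the log2 scale), Ccl2 (0.34) and Aif1 (0.34). Ednrb is on the neuron and glia list and Aif1 on the macrophage list. Ednrb encodes the endothelin receptor of enteric neural crest, Ccl2 a chemokine and Aif1 a protein of macrophages. Ednrb read 6.60 and 6.12 in stomach, 8.37 and 9.15 in intestine, and in Barx1 intestine 5.20 and 5.98. Its replicate 2 was the higher one in both intestine groups, as for Igfbp5. Likeness over these same arrays was the rule that picked these genes, so a shared order is no separate result.

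**Figure D4:**
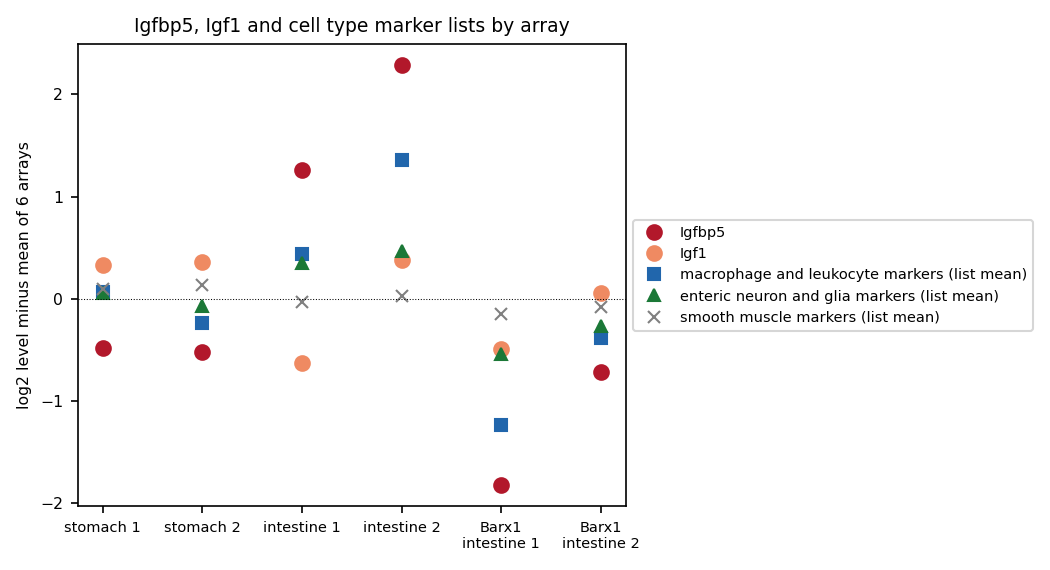
Log2 level minus the mean of the 6 arrays (vertical axis) on each array (horizontal axis) for Igfbp5, Igf1 and the means of the macrophage and leukocyte, enteric neuron and glia, and smooth muscle marker lists (symbols). The macrophage list mean runs from -1.24 on Barx1 intestine replicate 1 to 1.36 on intestine replicate 2, the same arrays on which Igfbp5 is lowest and highest. The enteric neuron and glia list mean is lowest (-0.54) and highest (0.47) on those arrays too. The smooth muscle list mean stays between -0.15 and 0.14, an average over markers that moved in either direction.

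Igfbp2, which lies next to Igfbp5 on chromosome 1 in the reference gene order, encodes a binding protein that is abundant in fetal tissue. It read 8.56 and 9.10 in stomach, 9.03 and 9.78 in intestine, and in Barx1 intestine 8.19 and 8.65. Replicate 2 was higher than replicate 1 in all 3 groups, by 0.54, 0.74 and 0.46, and the Barx1 intestine arrays lay below both intestine arrays. Barx1 intestine minus intestine was -0.98 (95% interval -1.76 to -0.20, adjusted p = 0.139 by limma, n = 2 per group), stomach minus intestine -0.57 (-1.36 to 0.21, adjusted p = 0.260) and Barx1 intestine minus stomach -0.41 (-1.19 to 0.37, adjusted p = 0.479). No comparison passed.

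Igfbp4 encodes a binding protein that withholds IGFs from the receptor until PAPP-A cleaves it. Its level was 9.66 and 9.50 in stomach, 10.15 and 10.11 in intestine, and in Barx1 intestine 9.30 and 9.56. Both intestine arrays were above all the others, and the stomach and Barx1 intestine arrays overlapped. Stomach was lower than intestine by -0.55 (SE 0.11, 95% interval -0.81 to -0.29, adjusted p = 0.0246 by limma, n = 2 per group), and Barx1 intestine was lower than intestine by -0.70 (SE 0.11, 95% interval -0.97 to -0.44, adjusted p = 0.0345). Barx1 intestine and stomach differed by -0.15 (95% interval -0.42 to 0.11, adjusted p = 0.428). Of its 6 probe sets, 4 passed as lower in stomach and 3 as lower in Barx1 intestine when every probe set was tested, and those 4 included the 3.

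The Igfbp4 calls were close to the threshold. Against intestine the call in Barx1 intestine ended in all 6 fits that left out 1 array, with adjusted p of 0.0814 without either stomach array, 0.0803 and 0.0970 without intestine replicate 1 and 2, and 0.127 and 0.0562 without Barx1 intestine replicate 1 and 2. That in stomach ended without stomach replicate 1 (0.0839) or 2 (0.138) and without intestine replicate 1 (0.0857) or 2 (0.0689). Over all alternatives the adjusted p ran from 0.0114 to 0.127 for Barx1 intestine and from 0.00968 to 0.138 for stomach, with the same sign throughout.

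Igfbp6 moved in the opposite direction to Igfbp4 and Igfbp5. Its level was 7.16 and 7.45 in stomach, 6.64 and 6.73 in intestine, and in Barx1 intestine 7.65 and 7.82. The groups did not overlap, with intestine lowest and Barx1 intestine highest. Barx1 intestine was higher than intestine by 1.05 (SE 0.12, 95% interval 0.76 to 1.34, adjusted p = 0.0188 by limma, n = 2 per group), and stomach by 0.62 (SE 0.12, 95% interval 0.33 to 0.91, adjusted p = 0.0225). Barx1 intestine minus stomach was 0.43 (95% interval 0.14 to 0.72, adjusted p = 0.0959), which did not pass. The call in Barx1 intestine ended without intestine replicate 2 (0.0584) and without Barx1 intestine replicate 1 (0.0837) or 2 (0.0713), and over all alternatives the adjusted p ran from 0.00735 to 0.0837. The call in stomach ended without stomach replicate 2 (0.101) and without intestine replicate 1 (0.0824) or 2 (0.0597), within 0.0134 to 0.101.

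Igfbp6 has a single probe set here. The genes most like it over the 6 arrays were Kcnn4, a calcium-activated potassium channel gene (root mean square difference 0.13 on the log2 scale), Itm2a, which encodes a membrane protein (0.14), and Twist1, a transcription factor gene of mesenchyme (0.14). Twist1 read 7.60 and 7.63 in stomach, 7.10 and 6.77 in intestine, and in Barx1 intestine 7.91 and 8.08. Its order of groups follows from the rule that picked it and is no separate result.

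Igfbp3, the serum carrier gene, had its highest level in stomach and its lowest in Barx1 intestine. It read 8.15 and 8.46 in stomach, 7.96 and 7.87 in intestine, and in Barx1 intestine 7.27 and 7.35. The groups did not overlap. Barx1 intestine was lower than stomach by -0.99 (SE 0.11, 95% interval -1.27 to -0.72, adjusted p = 0.0164 by limma, n = 2 per group). The difference from intestine was -0.61 in Barx1 intestine (95% interval -0.89 to -0.33, adjusted p = 0.0502) and 0.39 in stomach (95% interval 0.11 to 0.67, adjusted p = 0.0694), and neither passed. The call against stomach ended without stomach replicate 1 (0.0658) or 2 (0.107) and without Barx1 intestine replicate 1 (0.103) or 2 (0.0676), and ran from 0.00577 to 0.107 over all alternatives.

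Igfbp7 encodes a secreted protein of the vessel wall and stroma that binds IGFs weakly. It read 12.69 and 12.73 in stomach, 12.57 and 12.49 in intestine, and in Barx1 intestine 12.16 and 12.67, where the replicates enclosed the intestine arrays. Its differences were 0.18 for stomach minus intestine, -0.12 for Barx1 intestine minus intestine and -0.30 for Barx1 intestine minus stomach, and none passed (adjusted p from 0.337 to 0.720 by limma). Neither did the probe sets 1423585_at and 1437804_at.

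Upstream sequence is shown for Igfbp5, Igfbp4 and Igfbp6, the 3 genes called in both comparisons with intestine. Each line holds the 250 bases before the annotated transcript start (RefSeq, GRCm38.p6), 5′ to 3′ on the gene's strand. Capitals mark TATAAA, the usual TATA box, and TATTTAA, a variant of it that was added to the search after the sequences had been read, both on the sense strand.
Igfbp5 (chr1:72874866-72875115, minus strand): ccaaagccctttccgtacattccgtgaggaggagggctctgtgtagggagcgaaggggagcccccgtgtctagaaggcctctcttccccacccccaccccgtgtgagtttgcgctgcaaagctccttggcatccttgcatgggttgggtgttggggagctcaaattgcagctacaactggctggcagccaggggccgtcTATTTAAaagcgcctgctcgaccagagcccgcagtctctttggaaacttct
Igfbp4 (chr11:99040994-99041243, plus strand): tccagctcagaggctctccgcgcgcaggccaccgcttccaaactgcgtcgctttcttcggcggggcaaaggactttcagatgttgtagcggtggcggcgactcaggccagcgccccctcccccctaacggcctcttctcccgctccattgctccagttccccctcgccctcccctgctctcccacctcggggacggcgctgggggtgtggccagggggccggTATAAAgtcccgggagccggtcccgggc
Igfbp6 (chr15:102143936-102144185, plus strand): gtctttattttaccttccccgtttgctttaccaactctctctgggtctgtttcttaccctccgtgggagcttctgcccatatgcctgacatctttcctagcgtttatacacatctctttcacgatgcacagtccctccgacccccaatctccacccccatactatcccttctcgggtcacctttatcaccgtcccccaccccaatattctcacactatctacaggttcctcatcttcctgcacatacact
Counted from the start as position -1 for the base just before it, TATTTAA began at -51 of Igfbp5 and TATAAA at -28 of Igfbp4, and neither was found before Igfbp6. TATAAA occurs in 7.59% and TATTTAA in 2.26% of the 32851 promoter windows of that length in the table. The share of G and C was 58.8% for Igfbp5, 69.2% for Igfbp4 and 49.6% for Igfbp6, against a median of 52.4% over all windows. TAAT, the core letters in the binding sites of many homeodomain proteins, on either strand, was in 54.9% of all windows and in 0 of the 10 windows of the 9 genes. The share of G and C ran from 49.6% (Igfbp6) to 77.6% (Igf1r) over those windows, and all but that of Igfbp6 exceeded the median. A word of A and T alone has fewer places to occur in such windows, so 54.9% is not a matched background. The absence of TAAT says only that these letters are not in these windows, and the data hold no measure of BARX1 binding.

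The other genes of the pathway were read from lists chosen by their role, of which 38 of 44 genes were measured. In stomach against intestine 6 were higher and 2 lower, in Barx1 intestine against intestine 1 was higher and 1 lower, and in Barx1 intestine against stomach 1 was higher and 2 were lower. Over all genes 16.9%, 3.98% and 5.2% passed in the same comparisons, so the pathway lists are not set apart by these counts. Leaving out 1 array gave 1 to 5 higher and 0 to 2 lower in the first of these comparisons, 0 of either in the second, and 0 to 1 higher and 0 to 2 lower in the third. The median log2 difference of the 38 genes was 0.03 in both comparisons with intestine and 0.01 against stomach, beside 0.02 and -0.0008 over all genes.

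Of 7 genes for the proteolysis of binding proteins and its inhibitors, Pappa, Adam12 and Stc2 were higher in stomach than in intestine and the other 4 did not pass. Pappa, which encodes PAPP-A, the protease that cleaves IGFBP4, read 8.00 and 7.87 in stomach, 6.50 and 6.76 in intestine, and in Barx1 intestine 5.98 and 6.18. The stomach arrays stood above all the others. Stomach exceeded intestine 2.48-fold (log2 difference 1.31, SE 0.12, adjusted p = 0.00426 by limma, n = 2 per group), a call kept in all 6 fits without 1 array (adjusted p from 0.00125 to 0.0424 over all alternatives). Barx1 intestine was below stomach by -1.86 (SE 0.12, adjusted p = 0.00832), a call that ended without stomach replicate 1 (0.0658) or 2 (0.0841) or Barx1 intestine replicate 1 (0.0583), within 0.00197 to 0.0841 over all alternatives. Barx1 intestine minus intestine was -0.55 (adjusted p = 0.0652), which did not pass.

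Adam12, a metalloprotease gene whose human protein cleaves IGFBP3 and IGFBP5, had the same order of stomach above the rest. It read 10.49 and 10.47 in stomach, 10.12 and 10.13 in intestine, and in Barx1 intestine 10.10 and 10.12. The difference from stomach was -0.37 in Barx1 intestine (adjusted p = 0.0271 by limma), and stomach exceeded intestine by 0.36 (adjusted p = 0.0133). Without stomach replicate 1 or 2 neither call held (adjusted p from 0.0947 to 0.185), and without Barx1 intestine replicate 1 or 2 the first did not (0.127 and 0.0929). Over all alternatives the adjusted p ran from 0.00608 to 0.185 for the first and from 0.00285 to 0.0967 for the second.

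Stc2, which encodes an inhibitor of PAPP-A, read 7.33 and 7.54 in stomach, 5.91 and 6.63 in intestine, and in Barx1 intestine 6.78 and 6.34. Stomach exceeded intestine by 1.17 (SE 0.26, adjusted p = 0.0377 by limma), but the call held in 1 of 6 fits without 1 array, that without intestine replicate 2 (adjusted p = 0.0218). It ended at 0.132 and 0.179 without stomach replicate 1 and 2, 0.0797 without intestine replicate 1 and 0.0546 without either Barx1 intestine array, and the range over all alternatives was 0.0198 to 0.179. Of the 7 genes of this list 0 passed in Barx1 intestine against intestine by limma (2 at an unadjusted p under 0.05).

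Downstream of the receptor, Irs1, the docking protein of the IGF1 and insulin receptors, was the gene with the smallest p among 21 adaptor and signalling genes in stomach against intestine. It read 9.96 on both stomach arrays, 10.79 and 10.65 in intestine, and in Barx1 intestine 10.83 and 10.66. The intestine groups overlapped and stood above the stomach. Stomach was lower than intestine by -0.76 (SE 0.08, adjusted p = 0.00624 by limma), and Barx1 intestine was higher than stomach by 0.78 (SE 0.08, adjusted p = 0.0150). The first call ended without stomach replicate 1 (0.0521) or 2 (0.0590). The second ended without stomach replicate 1 (0.108) or 2 (0.124) or Barx1 intestine replicate 1 (0.0763). Over all alternatives the adjusted p ran from 0.00129 to 0.0590 and from 0.00337 to 0.124.

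Grb10 and Pik3r1 differed from intestine in both stomach and Barx1 intestine. Grb10, an adaptor that restrains the IGF1 and insulin receptors, read 13.15 and 13.12 in stomach, 12.73 and 12.77 in intestine, and in Barx1 intestine 13.12 and 13.09. It was higher by 0.38 in stomach (adjusted p = 0.0123 by limma) and by 0.35 in Barx1 intestine (adjusted p = 0.0396). Pik3r1, a regulatory subunit of phosphoinositide 3-kinase, read 6.89 and 6.88 in stomach, 7.46 and 7.35 in intestine, and in Barx1 intestine 6.82 and 7.02. It was lower by -0.52 in stomach (adjusted p = 0.0166) and by -0.48 in Barx1 intestine (adjusted p = 0.0467). Both calls in Barx1 intestine ended in all 6 fits without 1 array, with adjusted p from 0.0862 to 0.162 for Grb10 and from 0.0692 to 0.164 for Pik3r1. In stomach the Grb10 call ended without stomach replicate 1 (0.0919) or 2 (0.0897), and the Pik3r1 call without stomach replicate 1 (0.0986) or 2 (0.106) or intestine replicate 1 (0.0626). The lowest adjusted p over all alternatives was 0.000957 in stomach and 0.00387 in Barx1 intestine for Grb10, and 0.0123 and 0.0340 for Pik3r1.

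Eif4ebp1, a repressor of translation under control of mTOR, was higher in stomach by 0.30 (adjusted p = 0.0416 by limma), a call that ended in all 6 fits without 1 array (adjusted p from 0.0551 to 0.191, and from 0.0101 to 0.191 over all alternatives). It was the last of the 4 signalling genes that passed there, 2 higher and 2 lower. Insr, the insulin receptor gene, Igfbp1, the neighbour of Igfbp3 on chromosome 11, Irs4 and Plag1 lay at or below the lower quartile on all 6 arrays, so no level above background was shown for them. Of the 4 measured genes for IGF2 mRNA-binding proteins and transcription factors of Igf2, 0 passed in any comparison by limma (0 to 2 at an unadjusted p under 0.05).

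**Figure D5:**
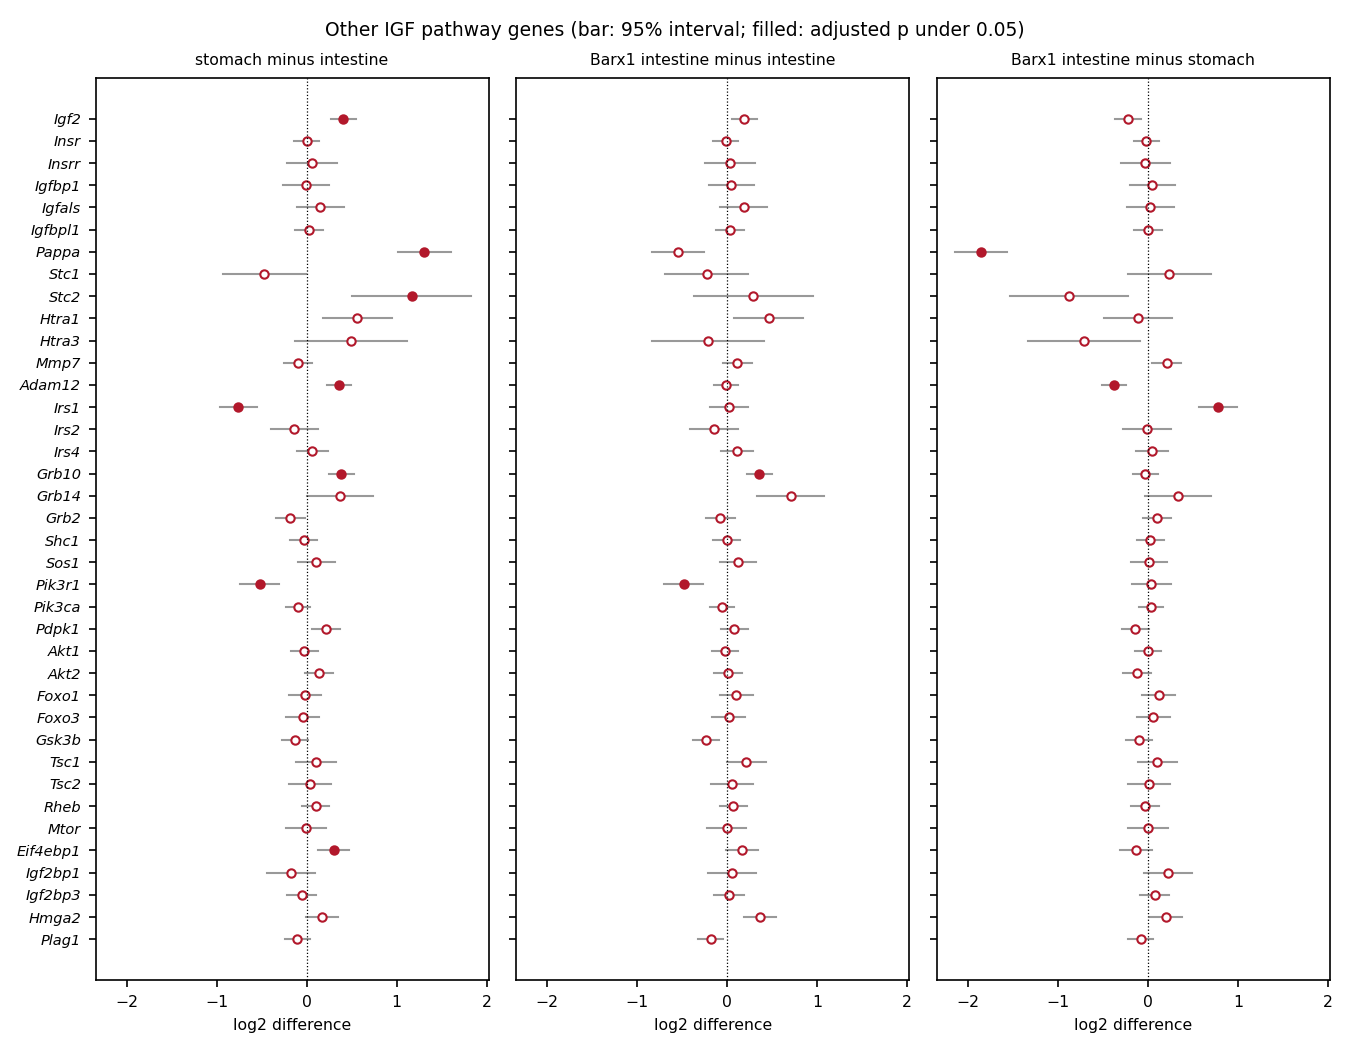
Log2 difference (horizontal axis) with 95% interval for the 38 other IGF pathway genes (rows) in the 3 comparisons (panels), with filled points for an adjusted p under 0.05 by limma. Pappa and Stc2 show the largest excess of stomach over intestine, at 1.31 and 1.17, and Pappa lies at -1.86 in Barx1 intestine against stomach.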

How the data were processed

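RNA of 6 cultures was measured on Affymetrix arrays with 22690 probe sets. The authors deposited log2 values made with RMA, a tool that the submitters' processing notes name. Its version is not given in the sources used here, and the log2 scale was read from the values. RMA brings arrays to a common distribution, so a shift of most genes would be lost. The number of arrays limits the precision.

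By the platform annotation 20380 probe sets had 1 gene, 691 several and 1555 none, and 64 controls were left out. Groups came from the labels. All arrays entered 1 fit of 3 group means in limma 3.58.1 (lmFit and eBayes, with data.table, version 1.17.8, in R 4.3.3), tested on simulated data. It had 3 residual and 2.58 prior degrees of freedom. P-values were adjusted by Benjamini-Hochberg over all genes of a comparison, with a threshold of 0.05, and every adjusted p is limma's. SE and 95% intervals are of the fit. A lone array left in a group was assumed to vary like the others. The closing section gives the alternatives.

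The genes and lists were chosen with earlier results of these data known. Named were the 9 genes, the pathway genes past the threshold (up to 6 per list), markers among the 4 of a list with the smallest p, and the 3 genes most like each of the 9 whose group means span at least 1. Replicate deviations correlated across genes at -0.22 (stomach and intestine), 0.20 (intestine and Barx1 intestine) and -0.06 (stomach and Barx1 intestine), so equal numbers were not taken as pairs.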

Additional observations from a re-analysis of the deposited data

How the results depend on the processing

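Of the 7 calls among the 9 genes, counted over all alternatives, 88 repeats stayed past the threshold, 41 did not and 0 changed sign. The count of these genes past the threshold ran without 1 array from 0 to 3 for stomach against intestine, 0 to 2 for Barx1 intestine against intestine and 0 to 1 for Barx1 intestine against stomach. The count over all genes ran from 281 to 1692, from 50 to 466 and from 0 to 727, the 0 being by limma without stomach replicate 2, with 1906 genes at an unadjusted p under 0.05. Some repeats in the tally of 88 and 41 were fixed in advance. The threshold of 0.10 and the minimum log2 difference of 0.5 could not end any of the 7 calls, and the threshold of 0.01 could not keep any. None of these could change a sign. In each comparison, leaving out either array of the uninvolved group gives the same fit as the 2 compared groups alone, so the tally counts it again. That fit gave 1 of the 9 and 50 of all genes for Barx1 intestine against intestine. At an adjusted p under 0.01 the count was 0 of the 9 in all 3 comparisons and 512, 40 and 11 of all genes. At 0.10 it was 2 of the 9 for Barx1 intestine against stomach, and 3310, 1316 and 1516 of all genes. A minimum log2 difference of 0.5 left 962 genes for stomach against intestine and 385 for Barx1 intestine against stomach. The variance trend gave 1037 and 1189 genes in the comparisons with Barx1 intestine, and the filter on dim genes 998 against stomach.

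With the replicate block the counts were 3, 3 and 1 of the 9 genes, and 1508, 267 and 337 of all genes. Igfbp4 then lost both calls (adjusted p = 0.0522 in stomach and 0.0672 in Barx1 intestine, within 0.00968 to 0.138), and Igfbp2 passed as lower than intestine in stomach (0.0283, range 0.0283 to 0.694) and Barx1 intestine (0.0275, range 0.0275 to 0.394). With 2 numbers per group this is not evidence of pairing. Crossed numbers for stomach and intestine, added after seeing the data, gave 3 and 1879. Igfbp3 against intestine in Barx1 intestine passed with the filter (0.0404), median centring (0.0464), repeated quantile normalisation (0.0453), averaged probe sets (0.0472) and the variance trend (0.0265), within 0.0265 to 0.196 over all alternatives. In stomach it passed with median centring (0.0449) and quantile normalisation (0.0438), within 0.0438 to 0.225. Igfbp4 lost both calls with the mean of probe sets (0.0569 and 0.0605).

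Some uncalled differences changed sign, and the cause was not tested. In stomach minus intestine Igf1r was 0.036 with median centring and 0.0091 with quantile normalisation, and without 1 array it ran from -0.039 to 0.024 and Igf1 from -0.032 to 0.98. In Barx1 intestine minus intestine Igf1 was 0.12 and Igf1r -0.071 with the mean of probe sets. Without 1 array Igf1 ran there from -0.60 to 0.41, Igf2r from -0.33 to 0.16 and Igfbp7 from -0.38 to 0.14.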
